A study of Mus musculus with 34 samples.

Results

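A set of 6 genes of fatty acid desaturation and elongation, Fads1, Fads2, Fads3, Elovl5, Elovl1 and Scd2, was followed by RNA sequencing in adipose tissue and heart of old mice on 3 diets. The genes were taken by symbol from the deposited expression tables. All 6 were found in both tissues, among 15145 genes counted in adipose tissue and 13238 counted in heart, and all 6 were kept by the low-count filter, which left 15112 and 13230 genes tested. C57BL/6J mice aged 20 to 22 months ate freely. They were given a commercial high-fat, high-calorie diet broken every 4 weeks by a fasting mimicking diet for 5 days (HFCD+FMD), the high-fat diet without a break (HFCD, 60% of calories from fat), or a control diet with 10% of calories from fat. From cycle 6 on, each fast was followed by 2 days on the control diet before the mice returned to HFCD. Sampling followed the end of cycle 11 by 4 days, so HFCD+FMD animals were measured while refed and not while fasting. The labels name no transgene or drug, and give neither sex nor fat depot. Counts were available for 6 HFCD+FMD, 4 HFCD and 3 control libraries of adipose tissue and for 4 HFCD+FMD, 5 HFCD and 5 control libraries of heart. Library totals ran from 15604982 to 40831656 counts in adipose tissue and from 16848195 to 47859170 counts in heart.

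Polyunsaturated fatty acids with long chains, such as arachidonic and docosahexaenoic acid, are made from dietary linoleic and alpha-linolenic acid by alternating desaturation and elongation in the endoplasmic reticulum. Fads2, the delta-6 desaturase, places the first double bond, Elovl5 lengthens the product, and Fads1, the delta-5 desaturase, places the next one. In liver, transcription of these genes is known to be raised by SREBP-1 and lowered by polyunsaturated fat in the diet. Fads3 is a homologue known to desaturate the sphingoid base of ceramides, Elovl1 lengthens saturated and monounsaturated fatty acids to very long chains, and Scd2 is a delta-9 desaturase that makes monounsaturated from saturated fatty acids. The last 3 are thus relatives of the pathway and do not form its main steps.

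The 3 Fads genes are neighbours on chromosome 19 of GRCm38. Fads3 lies on the forward strand at chr19:10041569-10060110, Fads2 on the reverse strand at chr19:10062765-10101746 and Fads1 on the forward strand at chr19:10182888-10196877, so that 2654 bases separate Fads2 from Fads3 and 81141 bases separate Fads1 from Fads2. Scd2 lies on the same chromosome at chr19:44293674-44306864, forward strand, 87590 bases from Scd1. Elovl1 is at chr4:118428093-118432953 and Elovl5 at chr9:77917364-77984519, both on the forward strand. By sequence alone, without regard to abundance, the reads of these genes can largely be told apart. Of the 50-base stretches of their transcripts, 3.97% of those of Scd2, 0.152% of those of Fads2 and 0.127% of those of Fads3 occur in another gene, and none of those of Fads1, Elovl1 or Elovl5. Elovl1 overlaps Cdc20, on the opposite strand, by 53 bases, and whether strand was used in counting is not given in the sources used here.

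The promoters of Fads2, Fads3 and Elovl5 are shown because the adjacent genes Fads2 and Fads3 lay on opposite sides of control in adipose tissue of HFCD mice, and because Elovl5 fell with Fads2. Each sequence runs from 250 bases before to 50 bases after the start site annotated by RefSeq on GRCm38.p6, and capitals mark 3 motifs searched on both strands: the box bound by NF-Y (CCAAT), the GC box bound by Sp1 (GGGCGG) and an E-box (CACGTG). Fads2 is read from the reverse strand of chr19:10101454-10101753, Fads3 from the forward strand of chr19:10041298-10041597 and Elovl5 from the forward strand of chr9:77917115-77917414.
Fads2: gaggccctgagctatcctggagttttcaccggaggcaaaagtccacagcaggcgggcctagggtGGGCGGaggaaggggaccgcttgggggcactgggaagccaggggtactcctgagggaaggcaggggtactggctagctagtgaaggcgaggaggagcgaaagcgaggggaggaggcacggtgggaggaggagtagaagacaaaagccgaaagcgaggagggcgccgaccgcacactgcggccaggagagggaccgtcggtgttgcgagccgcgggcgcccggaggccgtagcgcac
Fads3: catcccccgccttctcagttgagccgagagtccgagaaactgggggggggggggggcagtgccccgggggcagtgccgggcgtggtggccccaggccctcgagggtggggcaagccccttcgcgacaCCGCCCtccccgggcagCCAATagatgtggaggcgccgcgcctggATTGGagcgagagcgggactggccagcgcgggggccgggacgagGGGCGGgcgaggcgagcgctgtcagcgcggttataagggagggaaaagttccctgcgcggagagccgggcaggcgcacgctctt
Elovl5: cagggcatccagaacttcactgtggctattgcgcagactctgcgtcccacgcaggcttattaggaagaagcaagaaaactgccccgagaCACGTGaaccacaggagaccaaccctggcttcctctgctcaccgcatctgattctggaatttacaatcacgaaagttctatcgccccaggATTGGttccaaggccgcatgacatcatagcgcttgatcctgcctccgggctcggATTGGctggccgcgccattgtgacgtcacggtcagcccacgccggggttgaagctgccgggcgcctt
The window of Fads2 held 1 GC box and none of the other motifs. The window of Fads3 held 2 GC boxes and 2 boxes for NF-Y, and that of Elovl5 held 2 boxes for NF-Y and 1 E-box. The core of the sterol response element (CACCCCAC) was in none of these windows. Of 32851 RefSeq mouse promoters of the same length, 35.7% held the GC box, 37.4% the NF-Y box, 7.15% the E-box and 2.87% the sterol element core. These matches are a description of the letters in 1 window per gene.

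Levels are given as CPM, read counts scaled to a common library size and corrected for library composition, and levels of different genes are compared as RPKM, the CPM per kilobase of exon. In HFCD+FMD adipose tissue the order of mean levels was Fads3 at 143 ± 32.2 RPKM, Scd2 at 138 ± 74.5 RPKM, Elovl5 at 36.3 ± 3.65 RPKM, Elovl1 at 26.1 ± 7.40 RPKM, Fads1 at 19.02 ± 2.09 RPKM and Fads2 at 5.45 ± 1.17 RPKM (SD, n = 6). The libraries of Fads3 and Scd2 overlapped, as did those of Elovl5 and Elovl1 and those of Elovl1 and Fads1. HFCD adipose tissue had the same order, with Fads3 at 179 ± 36.9 RPKM, Scd2 at 85.5 ± 14.3 RPKM, Elovl5 at 32.6 ± 1.63 RPKM, Elovl1 at 24.5 ± 4.84 RPKM, Fads1 at 14.5 ± 1.85 RPKM and Fads2 at 3.52 ± 1.36 RPKM (SD, n = 4), and no neighbours in that order overlapped. In control adipose tissue Scd2 stood first at 220.2 ± 144 RPKM, followed by Fads3 at 118 ± 6.05 RPKM, Elovl5 at 54.9 ± 20.3 RPKM, Fads1 at 36.2 ± 2.23 RPKM, Elovl1 at 20.9 ± 2.13 RPKM and Fads2 at 11.1 ± 2.02 RPKM (SD, n = 3), again with no overlap between neighbours. Thus Fads3 stood above Scd2 and Elovl1 above Fads1 under HFCD, and the other way round under control.

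Adipose tissue of HFCD mice was first compared with that of control mice, which asks what the high-fat diet changed. The 3 enzymes that carry out the main steps of the polyunsaturated pathway, Fads1, Fads2 and Elovl5, and also Scd2, were lower under HFCD, whereas Fads3 and Elovl1 were not. Of the 6 genes 4 passed the test (edgeR quasi-likelihood test, Benjamini-Hochberg adjusted over all genes tested, threshold 0.05), all of them lower. The background was high: 30.0% of all 15112 genes tested passed in this comparison, 14.2% lower and 15.7% higher. The median log2 fold change was -1.03 over the 6 genes and 0.00 over all genes.

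Fads1 had 67.6, 58.5, 78.7 and 74.8 CPM in the HFCD libraries, against 187, 168 and 168 CPM in the control libraries. Every HFCD library lay far below every control library, and the control libraries were close together. The log2 fold change was -1.32 (SE 0.13, adjusted p = 0.00025), a 2.49-fold lower level, and Fads1 ranked number 5 of all 15112 genes by p. Fads2 had 8.49, 7.06, 14.8 and 16.1 CPM in the HFCD libraries, against 33.7, 44.2 and 31.9 CPM in the control libraries. The groups did not overlap, and HFCD replicates 1 and 2 were lower than replicates 3 and 4. The log2 fold change of Fads2 was -1.66 (SE 0.29, adjusted p = 0.00221). Both genes passed in all 24 alternative analyses. For 5 of the 6 genes, all but Elovl1, the CPM of the HFCD and control libraries did not overlap, as was so for 39.5% of all genes tested.

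Elovl5 had 122, 108, 114 and 114 CPM in the HFCD libraries, against 276, 156 and 148 CPM in the control libraries. All HFCD libraries lay below all control libraries, but control replicate 1 stood well above the others of its group. Elovl5 stood at -0.75 on the log2 scale (SE 0.18, adjusted p = 0.00973), and without control replicate 1 it was -0.40 with an adjusted p of 0.0387. That library had the smallest total (15604982 counts), the largest share of mitochondrially encoded reads (29.3%) and a summed level of brown and beige adipocyte markers of 335 CPM, against 30.0 to 76.7 CPM in the other 12 adipose libraries. Their part in the result was not tested.

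Scd2 had 472, 465, 562 and 370.4 CPM in the HFCD libraries, against 759, 2109 and 742 CPM in the control libraries. The groups did not overlap, and control replicate 3 was far above the others of its diet. Scd2 fell by 1.36 on the log2 scale (SE 0.49) with an adjusted p of 0.0494, just inside the threshold. Without control replicate 3 it was -0.68 with an adjusted p of 0.308, without control replicate 1 the adjusted p was 0.0570, and in all Scd2 passed in 12 of the 24 alternatives and in 5 of the 13 that leave out 1 library. Scd1, the main delta-9 desaturase of adipose tissue and not one of the 6 genes, was far more abundant, at 25753 ± 1655 CPM in HFCD libraries and 104766 ± 14567 CPM in control libraries (SD, n = 4 and n = 3), and fell by 2.02 on the log2 scale (SE 0.49, adjusted p = 0.00931). Of the 5461 stretches of 50 bases in Scd2 transcripts, 145 also occur in Scd1. Reads from those stretches cannot be assigned to 1 of the 2 genes, and how they were counted is not given. In RPKM, Scd1 was 50.1 to 76.9 times Scd2 in HFCD libraries and 57.2 to 173 times in control libraries. The part of Scd1 reads in the level and the fall of Scd2 was not tested.

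Fads3 had 796, 802, 598 and 526 CPM in the HFCD libraries, against 420.1, 464 and 454 CPM in the control libraries. All HFCD libraries lay above all control libraries, opposite to Fads1 and Fads2 beside it on the chromosome. The change of Fads3 on the log2 scale was 0.61 (SE 0.22, 95% interval 0.12 to 1.09), which did not pass with an adjusted p of 0.0560 and passed in 6 of the 24 alternatives. The ratio of Fads3 to Fads1 in RPKM, computed after the values had been seen, was 8.91 to 17.4 in HFCD libraries and 2.86 to 3.498 in control libraries. Elovl1 had 57.7, 55.01, 83.7 and 70.6 CPM in the HFCD libraries, against 52.4, 55.1 and 63.5 CPM in the control libraries. The groups overlapped, and the change of 0.23 on the log2 scale (95% interval -0.25 to 0.70, adjusted p = 0.454) did not pass.

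**Figure D1:**
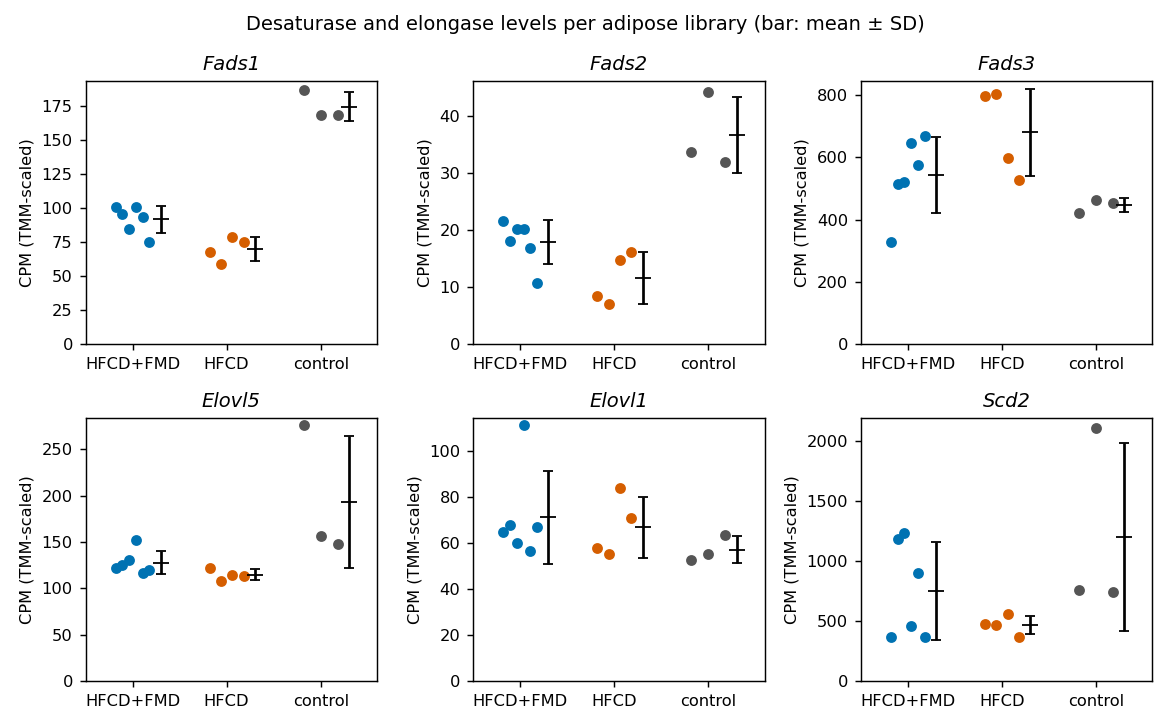
Level of each gene in CPM (vertical axis, from 0) in every adipose library (points) by diet, with the mean and SD of each diet as a bar. The 4 HFCD libraries lie below the 3 control libraries for Fads1, Fads2, Elovl5 and Scd2 and above them for Fads3.

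These calls depend on how the libraries are scaled. Scaled by library totals alone, the median log2 fold change of all genes became 0.44, and 90.2% of the genes called were higher, against 52.5% with composition scaling. Fads1 at -0.86 and Fads2 at -1.22 still passed, Elovl5 at -0.25 and Scd2 at -0.91 did not, and Fads3 at 1.06 and Elovl1 at 0.66 passed as higher. Against the median of all genes under that scaling, Fads1, Fads2, Elovl5 and Scd2 lay below and Fads3 and Elovl1 above. Each of the 6 genes kept its direction in all 24 alternatives.

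The libraries of the 2 diets also differed in some cell type markers, beside which stand the 30.0% of all genes called, 14.2% lower and 15.7% higher. The 3 of 10 endothelial and 3 of 10 brown and beige markers called match that share. The 1 of 10 B cell and 1 of 10 T cell markers called are below it. Of 15 macrophage markers 13 rose under HFCD, with a summed level of 4000 to 7697 CPM in HFCD libraries and 459 to 2379 CPM in control libraries, and of 15 proliferation markers 14 rose, with sums of 183 to 301 CPM in HFCD libraries and 48.2 to 69.8 CPM in control libraries. Of 10 mesothelial markers 7 fell, with sums of 24.9 to 138 CPM in HFCD libraries and 234 to 516 CPM in control libraries. Of 15 adipocyte markers 6 fell and 1 rose, with sums of 44342 to 48308.5 CPM in HFCD libraries and 51856.5 to 80222 CPM in control libraries. Of 10 endothelial markers 3 rose (1446 to 1724 CPM in HFCD, 1008 to 1159 CPM in control), and of 10 fibroblast and progenitor markers 4 rose (5142 to 9616 CPM in HFCD, 3372 to 6595 CPM in control). Of 10 brown and beige adipocyte markers 3 fell and none rose, with a median log2 fold change of -1.53. Their sums were 46.6 to 59.9 CPM in HFCD libraries and 335, 45.3 and 30.0 CPM in control replicates 1, 3 and 5. The sums of control replicates 3 and 5 thus lay below those of all HFCD libraries. Of 10 B cell markers 1 fell, of 10 T cell markers 1 fell, and of 10 Schwann cell markers 2 fell and 2 rose. Several of these counts moved with 1 library. With each library left out in turn, 6 to 14 macrophage markers were called (6 without control replicate 3, 7 without control replicate 1), 1 to 9 mesothelial (1 without control replicate 5 or HFCD replicate 2, 3 without control replicate 1 or HFCD replicates 1 or 4) and 3 to 8 adipocyte markers (3 without control replicate 1). Likewise 0 to 5 endothelial (0 without control replicate 3, HFCD replicate 1 or HFCD replicate 2), 1 to 5 fibroblast and 1 to 5 brown and beige (1 each without control replicate 1) and 12 to 14 proliferation markers were called. None of the adipocyte markers was at 0 in any library. The share of mitochondrially encoded reads was 2.17 to 6.08% in HFCD libraries and 12.6 to 29.3% in control libraries. None of 10 epididymis and testis markers was in the tables. The part of these differences in the levels of the 6 genes was not tested, and in bulk tissue fewer cells of a type and less RNA per cell cannot be told apart.

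Adipose tissue of HFCD+FMD mice was then compared with that of HFCD mice. This takes in the fasting cycles together with the 2 days of control diet after each fast from cycle 6 on, which cannot be told apart. None of the 6 genes passed in edgeR's test, where 0.205% of all genes tested did (31 of 15112), 0.0265% higher and 0.179% lower, and 1693 genes had an unadjusted p below 0.05. The median log2 fold change was 0.27 over the 6 genes and 0.01 over all genes. The libraries of the 2 diets overlapped for each of the 6 genes, where 3.34% of all genes had no overlap.

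Fads1 had 75.2 CPM in the lowest, 94.2 CPM in the median and 100.9 CPM in the highest HFCD+FMD library, against 67.6, 58.5, 78.7 and 74.8 CPM in the HFCD libraries. All but 1 of the HFCD+FMD libraries lay above all HFCD libraries. Fads1 was at 0.39 on the log2 scale (SE 0.11, 95% interval 0.15 to 0.62), with a p of 0.00345 from edgeR that became 0.205 after adjustment, and it passed with DESeq2 and with voom with library quality weights. Fads2 had 10.8, 19.1 and 21.6 CPM in the lowest, median and highest HFCD+FMD library, against 8.49, 7.06, 14.8 and 16.1 CPM in the HFCD libraries. Again a single HFCD+FMD library fell among the HFCD libraries and the rest were above them, with 0.63 on the log2 scale (95% interval 0.10 to 1.17, adjusted p = 0.369), which did not pass.

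Scd2 varied most among the HFCD+FMD libraries, with 365, 680.0 and 1233 CPM in the lowest, median and highest, against 472, 465, 562 and 370.4 CPM in the HFCD libraries. HFCD+FMD replicates 2, 3 and 5 had 1188, 1233 and 903 CPM, and replicates 1, 4 and 6 had 365, 457 and 368 CPM, so the group held libraries on both sides of HFCD. The same 3 libraries were the highest of the group in Scd1, at 37248.5, 40369.7 and 28920.5 CPM, where replicates 1, 4 and 6 had 7818 to 13551 CPM. The part of reads shared by Scd1 and Scd2 in this was not tested. The log2 fold change of Scd2 was 0.69 (SE 0.42, 95% interval -0.22 to 1.60, adjusted p = 0.563). The intervals of Elovl5, Elovl1 and Fads3 included 0. The fold change on the log2 scale was 0.16 for Elovl5 (-0.18 to 0.49), 0.09 for Elovl1 (-0.31 to 0.49) and -0.33 for Fads3 (-0.73 to 0.07). Elovl1 stood out in HFCD+FMD replicate 4 at 111 CPM, where the next highest library of the group had 67.7 CPM, and this library also had the highest sum of proliferation markers (452 CPM). No marker of any cell type list passed between these diets, where 0.205% of all genes did. The median log2 fold changes of the lists ran from -0.67 (cardiomyocyte) to 1.52 (B and plasma cell), with -0.61 for macrophage and 0.97 for mesothelial markers. The sums of B and plasma cell markers were 2559 to 8313 CPM in HFCD+FMD and 1179 to 2927 CPM in HFCD libraries. The part of these differences was not tested.

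**Figure D2:**
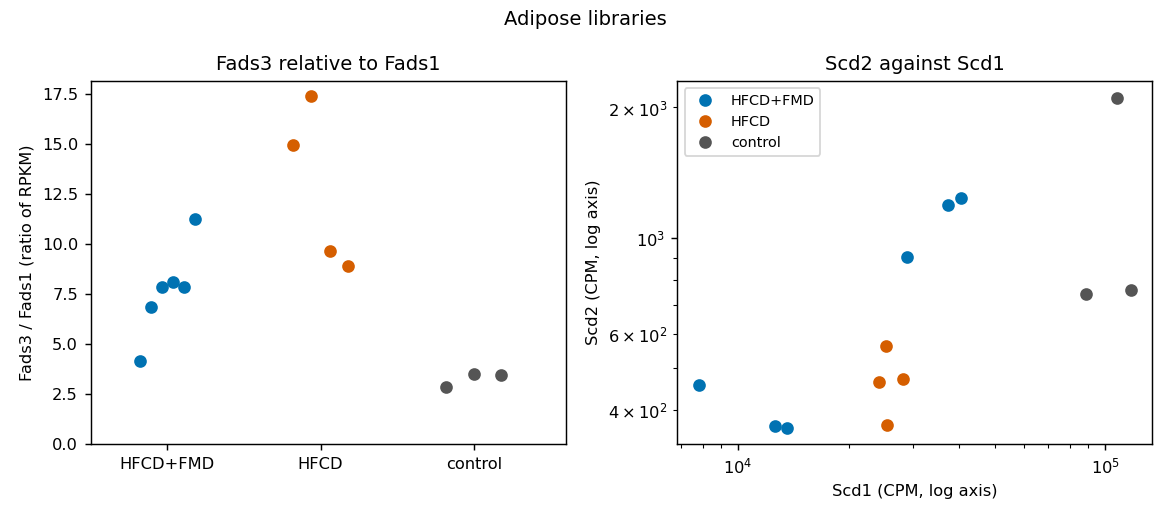
Left, ratio of Fads3 to Fads1 in RPKM in each adipose library by diet; the HFCD+FMD libraries span 4.13 to 11.3, the HFCD libraries 8.91 to 17.4 and the control libraries 2.86 to 3.498. Right, Scd2 against Scd1 in CPM on log axes, 1 point per adipose library, coloured by diet; HFCD+FMD libraries lie on both sides of the HFCD libraries on either axis, between 7818 and 40369.7 CPM of Scd1.

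Set against control, HFCD+FMD adipose tissue was lower in the 3 enzymes of the main pathway. Of the 6 genes 3 passed, all lower, where 19.7% of all genes passed, 9.25% lower and 10.5% higher. This comparison shares its control libraries with the first one and its HFCD+FMD libraries with the second. The HFCD+FMD libraries, with means of 91.5 ± 10.0 CPM for Fads1, 18.0 ± 3.87 CPM for Fads2 and 128 ± 12.8 CPM for Elovl5 (SD, n = 6), stood against control means of 174 ± 10.7 CPM for Fads1, 36.6 ± 6.67 CPM for Fads2 and 193 ± 71.5 CPM for Elovl5 (SD, n = 3). The groups did not overlap for Fads1 and Fads2, as was so for 21.0% of all genes, and they overlapped for Elovl5. The log2 fold changes were -0.93 for Fads1 (SE 0.12, adjusted p = 0.00165), -1.03 for Fads2 (SE 0.26, adjusted p = 0.0180) and -0.60 for Elovl5 (SE 0.17, adjusted p = 0.0271). Without control replicate 1 only Fads1 passed, with Fads2 at -1.08 (adjusted p = 0.0600) and Elovl5 at -0.25 (adjusted p = 0.186); without control replicate 3, Fads2 was at -0.87 (adjusted p = 0.0796). Scaled by library totals alone the median of all genes was 0.47, the share of called genes that were higher was 95.1%, against 53.1% with composition scaling, and Fads1 at -0.45, Fads3 at 0.75 and Elovl1 at 0.78 passed.

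Scd2 averaged 752 ± 407 CPM in HFCD+FMD libraries and 1203 ± 784 CPM in control libraries, or -0.68 on the log2 scale (95% interval -1.63 to 0.28, adjusted p = 0.287), which did not pass and became 0.00 without control replicate 3. Fads3 averaged 542 ± 122 CPM in HFCD+FMD libraries and 446 ± 22.9 CPM in control libraries (log2 fold change 0.28, SE 0.21, 95% interval -0.17 to 0.73, adjusted p = 0.350). Elovl1 averaged 71.1 ± 20.2 CPM in HFCD+FMD libraries and 57.0 ± 5.80 CPM in control libraries (log2 fold change 0.32, SE 0.21, 95% interval -0.12 to 0.76, adjusted p = 0.280). Between HFCD+FMD and control 19.7% of all genes passed, near the share of the brown and beige markers counted below. Of 15 proliferation markers 14 were higher in HFCD+FMD than in control libraries, with sums of 122 to 452 CPM against 48.2 to 69.8 CPM. Of 15 macrophage markers 7 were higher, but the sums overlapped, at 1748 to 5970 CPM in HFCD+FMD and 459 to 2379 CPM in control libraries, and the count was 0 without control replicate 1 or control replicate 3 and 13 without control replicate 5. Of 10 endothelial markers 5 were higher, with sums of 1345 to 2736 CPM in HFCD+FMD and 1008 to 1159 CPM in control libraries, and 1 to 5 passed with a library left out (1 without control replicate 3). Of 10 fibroblast and progenitor markers 4 were higher (0 without control replicate 1 or control replicate 3), of 15 adipocyte markers 3 were lower and 1 higher (0 called without control replicate 1), and of 10 brown and beige adipocyte markers 2 were lower (0 without control replicate 1, 6 without control replicate 5). No mesothelial marker passed (sums of 34.8 to 245 CPM in HFCD+FMD and 234 to 516 CPM in control libraries), and the share of mitochondrially encoded reads was 2.20 to 7.47% in HFCD+FMD and 12.6 to 29.3% in control libraries. The part of these differences in the result was not tested.

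Genes that work with the 6 were counted from lists chosen for the pathway, beside which stand the 30.0% of all genes called for HFCD against control. Of 9 other desaturases and elongases tested, 5 fell under HFCD and none rose, with a median log2 fold change of -2.02. Elovl6, which lengthens palmitate, averaged 19.3 ± 5.16 CPM in HFCD and 1125 ± 429 CPM in control libraries (log2 fold change -5.87, adjusted p = 0.000687). Scd3 and Scd4 fell by 2.25 and 1.24 on the log2 scale, but from very low levels. Scd3 averaged 0.598 CPM in HFCD and 2.90 CPM in control libraries, and Scd4 0.406 and 0.965 CPM. Sequence that Scd3 and Scd4 share with the far more abundant Scd1 was not counted. Without control replicate 3 this list had 3 calls, and Scd4 (adjusted p = 0.1001) was not among them. Each round of elongation needs 3 further enzymes, a ketoacyl reductase, a dehydratase and an enoyl reductase. Of 6 such partners tested 3 fell, 1 of each kind: Hsd17b12 at -1.01 (adjusted p = 0.0180), Hacd1 at -0.86 (adjusted p = 0.00227) and Tecr at -1.51 (adjusted p = 0.00326). Hsd17b12 did not pass without control replicate 1 or control replicate 3 (adjusted p = 0.0722 and 0.0664). Of 6 genes that supply electrons to the desaturases only Cyb5a, cytochrome b5, passed (log2 fold change -0.80, adjusted p = 0.00461).

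Steps after the desaturases moved both ways. The 13 peroxisomal genes of the last step of docosahexaenoic acid synthesis had a median log2 fold change of -0.06. Among them Scp2, which encodes a peroxisomal thiolase, was the 1 gene lower, at -1.16 (adjusted p = 0.00227). Of 16 genes that activate fatty acids or place them in phospholipids 4 rose and 3 fell. With control replicate 1 left out 4 genes of this list were called. Lpcat3, which favours arachidonate, fell at -0.96 (adjusted p = 0.0137; 0.0740 without control replicate 1), as did Mboat7 at -0.61 (adjusted p = 0.00813), whereas Lpcat1 at 0.82 (adjusted p = 0.00368) and the acyl-CoA synthetase Acsl5 at 0.83 (adjusted p = 0.00429) rose. Of 25 genes that release these fatty acids or turn them into eicosanoids 6 rose and 7 fell, with 7 calls without control replicate 1 and 8 without control replicate 3. Pla2g5, a secreted phospholipase, averaged 18.2 ± 8.79 CPM in HFCD and 0.704 ± 0.504 CPM in control libraries (log2 fold change 4.57, adjusted p = 0.000564), and the prostaglandin D synthase Hpgds averaged 59.7 ± 22.9 CPM in HFCD and 4.11 ± 1.49 CPM in control libraries (3.82, adjusted p = 0.00292). Levels went the other way for Ptgds, a further prostaglandin D synthase, at 0.0416 to 0.298 CPM in HFCD and 0.711 to 10.2 CPM in control libraries. So did those of Ptges3, at 17.4 ± 0.671 CPM in HFCD and 26.8 ± 2.39 CPM in control libraries.

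Of 24 regulators of these genes 1 rose and 4 fell under HFCD, a smaller share than that of all genes called. This count ran from 1 to 7 with a library left out (1 without control replicate 1, HFCD replicate 2 or HFCD replicate 4) and from 2 to 10 in other analyses. Srebf1, which encodes SREBP-1, averaged 150 ± 26.6 CPM in HFCD and 178 ± 69.1 CPM in control libraries and did not pass, at -0.25 on the log2 scale (SE 0.30, adjusted p = 0.553). Srebf2 was higher, at 0.51 (adjusted p = 0.0390), but passed in only 7 of the 13 fits that leave out 1 library. Its adjusted p was 0.146 without control replicate 1, 0.126 without control replicate 3, 0.0516 without HFCD+FMD replicate 2, and 0.0639, 0.0984 and 0.0519 without HFCD replicates 2, 3 and 4. Mlxipl, which encodes the carbohydrate-responsive factor ChREBP, fell at -1.52 (adjusted p = 0.00928). Of 21 SREBP-2 targets of cholesterol synthesis 4 rose and 8 fell (7 called without control replicate 3), and of 16 genes of fatty acid synthesis 15 fell, with a median of -2.12. Of 9 uptake and sensing genes only Fabp4, a fatty acid carrier, passed, at -1.001 (adjusted p = 0.0169; 0.0957 without control replicate 1). Between HFCD+FMD and HFCD, 1 gene of all these lists passed: Pla2g5 averaged 3.41 ± 1.43 CPM in HFCD+FMD and 18.2 ± 8.79 CPM in HFCD libraries (log2 fold change -2.42, adjusted p = 0.0292). It passed in 16 of 24 alternatives and in 6 of the 13 that leave out 1 library, with an adjusted p of 0.131 without HFCD replicate 2. The other libraries whose removal ended the call were HFCD replicates 3 and 4 and HFCD+FMD replicates 1, 3, 5 and 6 (adjusted p of 0.0506 to 0.0875).

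**Figure D3:**
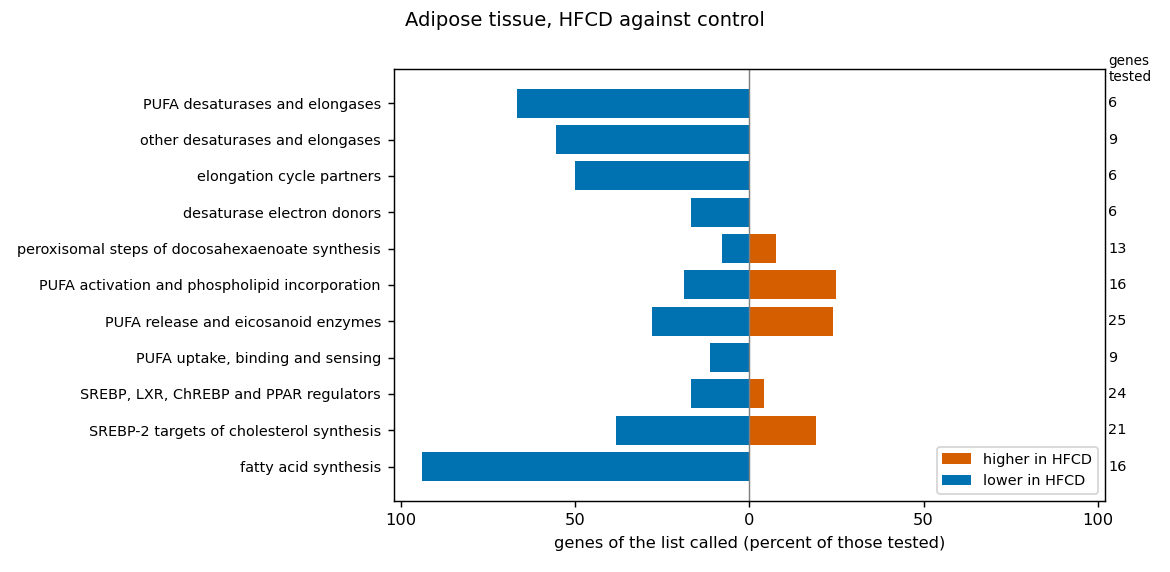
Share of the tested genes of each pathway list that passed as higher (right of 0) or lower (left of 0) in HFCD than in control adipose tissue, in percent, with the number tested at the right; PUFA stands for polyunsaturated fatty acid. No gene was called higher among the 6 genes, where 4 were lower, the other desaturases and elongases, where 5 were lower, the elongation partners, where 3 were lower, and fatty acid synthesis, where 15 were lower.

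The genes beside the Fads cluster did not move as 1 block under HFCD. Of 9 neighbours tested, Fen1 (1.66, adjusted p = 0.00898), a flap endonuclease of DNA replication, Incenp (1.51, adjusted p = 0.0117), a chromosomal passenger protein, Rab3il1 (1.68, adjusted p = 0.00290) and 1 further gene rose on the log2 scale, and Myrf (-1.89, adjusted p = 0.0320) was lower. Myrf passed in 8 of the 13 fits that leave out 1 library, and not without control replicates 1 or 5 or HFCD replicates 1, 2 or 4 (adjusted p of 0.0574 to 0.123). Incenp did not pass without control replicate 1 (adjusted p = 0.0556), and 3 of the 9 were called without control replicate 1 or control replicate 5. Of 11 neighbours of Scd2 tested, Scd1, Scd3, Scd4 and Ndufb8 fell and none rose (Ndufb8, adjusted p = 0.0829 without control replicate 1). Scd3 and Scd4 were also counted above among the other desaturases and elongases. Beside these counts stand the 30.0% of all genes called, 14.2% lower and 15.7% higher, and the number called beside Scd2 is near that share. The gene whose centred log2 levels over the 13 adipose libraries lay closest to Fads1 was Fam210b, with a root-mean-square difference of 0.18, followed by Mob3b at 0.19. The closest pair for Fads2 was Bola3 (0.25) and Rbm38 (0.25), for Fads3 Pcyox1 (0.12) and Plpp2 (0.13), for Elovl5 Bri3bp (0.11) and Chchd3 (0.12), for Elovl1 E2f1 (0.13) and Reep4 (0.14), and for Scd2 Reep1 (0.33) and Itgae (0.34), of 12810 genes ranked. None of the 6 genes was among the closest pair of another.

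In heart, the deposited log2 table had been corrected for 3 sets of libraries, which the labels do not explain and which were recovered from the difference between that table and the counts. In set C were HFCD+FMD replicates 2, 3 and 5 with HFCD replicate 5, in set B HFCD+FMD replicate 1 with control replicates 4 and 6, and in set A HFCD replicates 1 to 4 with control replicates 2, 3 and 5. The sets entered the heart model as a factor, so that HFCD+FMD is compared within a set only through its replicate 1 (set B) and HFCD replicate 5 (set C), too few for a tested value within those sets. The share of mitochondrially encoded reads was 29.5 to 62.0% in HFCD+FMD hearts, 36.4 to 71.5% in HFCD hearts and 21.8 to 32.6% in control hearts. All 11 cardiomyocyte markers were present, with summed levels of 58330 to 64561 CPM in HFCD+FMD, 38886 to 51688 CPM in HFCD and 51606 to 79790 CPM in control hearts. Of 15 adipocyte markers 14 were in the heart table, with sums of 6477 to 9326 CPM in HFCD+FMD, 5829 to 10552 CPM in HFCD and 5998 to 9343 CPM in control hearts. Of these 14, 2 were called lower in HFCD+FMD than in HFCD hearts (median log2 fold change -0.88), where 0.106% of all genes passed. Against control, 2 were called lower in HFCD+FMD hearts (median -0.85), where 0.0227% of all genes passed. These heart marker counts were not recomputed in the alternatives. The part of these differences in the heart results was not tested.

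None of the 6 genes passed in any of the 3 heart comparisons, in edgeR's test or in any alternative run. The background was close to 0 as well: 0% of 13230 genes passed for HFCD against control, 0.106% for HFCD+FMD against HFCD and 0.0227% for HFCD+FMD against control. For HFCD against control 1687 genes had an unadjusted p below 0.05, and 0 to 226 genes passed after adjustment in the other analyses of the same libraries. Libraries of the compared diets overlapped for every one of the 6 genes, where the share of all genes without overlap was 7.19% for HFCD against control, 4.65% for HFCD+FMD against HFCD and 9.02% for HFCD+FMD against control.

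Fads1 had 19.9, 18.9, 18.5, 16.4 and 28.5 CPM in the HFCD hearts, against 19.6, 18.4, 19.4, 18.4 and 20.1 CPM in the control hearts. The control hearts were nearly equal, and HFCD replicate 5, of set C, stood above all others. The fold change on the log2 scale was 0.15 (SE 0.16, 95% interval -0.20 to 0.49, adjusted p = 0.657), and within set A it was -0.04. Within set A the other values were 0.23 for Fads2, -0.12 for Elovl5, 0.14 for Fads3, -0.15 for Elovl1 and -0.10 for Scd2. Fads2, the least abundant of the 6 with 55 to 192 counts per heart library, had 2.71, 3.55, 5.55, 2.72 and 4.82 CPM in the HFCD hearts, against 3.27, 2.85, 2.4996, 2.88 and 3.20 CPM in the control hearts. HFCD replicates 2, 3 and 5 were above the control range and replicates 1 and 4 within it, and the log2 fold change was 0.25 (SE 0.23, 95% interval -0.25 to 0.75, adjusted p = 0.594). Elovl5 had 26.7, 23.8, 29.6, 21.0 and 32.1 CPM in the HFCD hearts, against 28.4, 26.1, 27.6, 27.1 and 26.7 CPM in the control hearts. The means were almost the same and the HFCD hearts more spread, at -0.07 on the log2 scale (95% interval -0.33 to 0.20, adjusted p = 0.808).

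Fads3 averaged 47.2 ± 11.9 CPM in HFCD hearts and 40.97 ± 2.99 CPM in control hearts (SD, n = 5 each), and the log2 fold change was 0.29 (SE 0.23, 95% interval -0.19 to 0.78, adjusted p = 0.534). The HFCD mean includes replicate 3 at 26.2 CPM, far below the 48.8 to 54.4 CPM of the other 4 HFCD hearts, and those 4 lay above all control hearts (37.5 to 45.8 CPM). Replicate 3 has the largest share of mitochondrially encoded reads of all hearts (71.5%). The next largest shares were in HFCD+FMD replicates 3 and 5 (62.0 and 61.4%), which had 28.3 and 23.5 CPM of Fads3, and in HFCD replicate 5 (59.8%), which had 53.0 CPM. Elovl1 averaged 14.4 ± 3.91 CPM in HFCD hearts and 13.1 ± 3.43 CPM in control hearts (log2 fold change 0.09, 95% interval -0.40 to 0.57, adjusted p = 0.868), and Scd2 averaged 16.96 ± 2.37 CPM in HFCD hearts and 17.7 ± 2.74 CPM in control hearts (log2 fold change -0.12, 95% interval -0.44 to 0.21, adjusted p = 0.714).

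HFCD+FMD hearts had 26.7, 20.7, 22.6 and 15.6 CPM of Fads1, 3.12, 3.36, 5.08 and 4.71 CPM of Fads2 and 28.7, 28.1, 31.98 and 32.4 CPM of Elovl5. The ranges of all of these overlapped those of both other diets. Control hearts had 18.4 to 20.1 CPM of Fads1, with HFCD+FMD replicates 1, 2 and 3 above that range and replicate 5 below it. For Fads2, HFCD+FMD replicates 2, 3 and 5 lay above the highest control heart (3.27 CPM). For Elovl5, replicates 1, 3 and 5 did so (highest control heart 28.4 CPM). Against HFCD, the log2 fold changes of the 6 genes lay between -0.47 (Fads3, 95% interval -1.07 to 0.14) and 0.24 (Scd2, 95% interval -0.19 to 0.67), with adjusted p of 0.616 or more. Against control they lay between -0.18 (Fads3, 95% interval -0.80 to 0.45) and 0.12 (Scd2, 95% interval -0.31 to 0.56), with adjusted p of 0.862 or more.

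**Figure D4:**
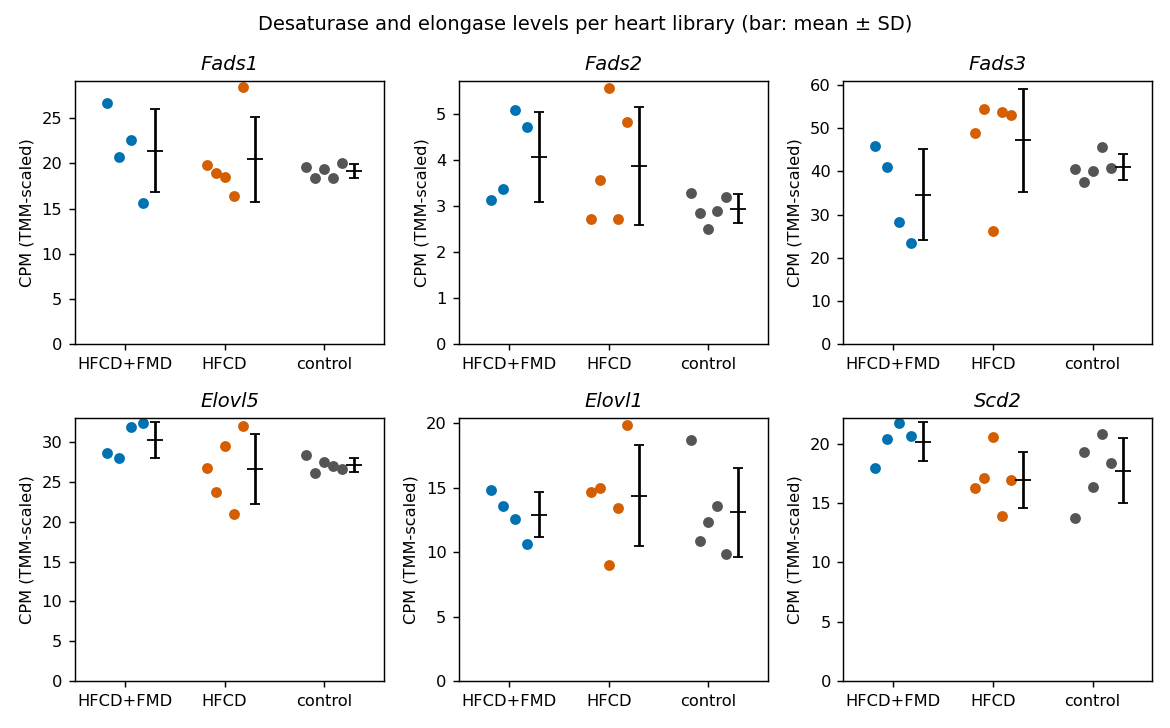
Level of each gene in CPM (vertical axis, from 0) in every heart library (points) by diet, with the mean and SD of each diet as a bar. The diets overlap for all 6 genes; HFCD replicate 5 is the high HFCD point for Fads1, at 28.5 CPM, and HFCD replicate 3 the low one for Fads3, at 26.2 CPM.

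In control hearts the order of levels was Fads3 at 10.8 ± 0.788 RPKM, Elovl5 at 7.72 ± 0.253 RPKM, Elovl1 at 4.80 ± 1.26 RPKM, Fads1 at 3.99 ± 0.156 RPKM, Scd2 at 3.24 ± 0.501 RPKM and Fads2 at 0.892 ± 0.0938 RPKM (SD, n = 5), where Elovl1 and Fads1 were the only neighbours that overlapped. In HFCD hearts the order was the same, at 12.4, 7.56, 5.28, 4.25, 3.10 and 1.17 RPKM, and all neighbours but Scd2 and Fads2 overlapped. Control adipose tissue had Scd2 in first place. Adipose and heart libraries were scaled separately, so levels are set side by side without a test. In control mice the adipose level in RPKM was 67.9 times the heart level for Scd2 (42.4 times without adipose control replicate 3), 12.4 times for Fads2, 10.9 times for Fads3, 9.08 times for Fads1, 7.12 times for Elovl5 and 4.35 times for Elovl1. In HFCD mice it was 27.6 times for Scd2, 3.00 times for Fads2, 14.4 times for Fads3, 3.42 times for Fads1, 4.30 times for Elovl5 and 4.64 times for Elovl1. Scd1, which shares some sequence with Scd2, averaged 104766 CPM in control adipose tissue and 42.3 CPM in control hearts. The part of Scd1 reads in the tissue ratios and in the rank of Scd2 was not tested. All 6 genes were higher in adipose tissue than in heart in each diet, without overlap of libraries. The share of all genes with that pattern was not counted, so it is not read as a trait of the 6 genes.

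Whether the diet acted differently on the 2 tissues was tested as the interaction of tissue and diet in 1 edgeR fit over 12593 genes present in both. For HFCD against control 3 of the 6 genes passed, where 17% of all genes did. The log2 fold change in adipose tissue minus that in heart was -1.44 for Fads1 (SE 0.21, adjusted p = 0.000178), -1.89 for Fads2 (SE 0.38, adjusted p = 0.00257) and -0.67 for Elovl5 (SE 0.22, adjusted p = 0.0371). Fads1 and Fads2 passed in all 30 alternatives and Elovl5 in 20 of them. Scaling by library totals alone was not among these, so the tissue difference under that scaling was not tested. In the fits per tissue it gave -0.86 in adipose tissue and -0.24 in heart for Fads1, and -1.22 and -0.21 for Fads2. For Elovl5 it gave -0.25 in adipose tissue and -0.48 in heart, the reverse order of the tissues. Without adipose control replicate 1 the value of Elovl5 was -0.32 (adjusted p = 0.197). Scd2 did not pass, at -1.23 (95% interval -2.298 to -0.17, adjusted p = 0.0977), nor did Fads3, at 0.33 (-0.34 to 1.01), and Elovl1, at 0.17 (-0.52 to 0.85). For HFCD+FMD against HFCD none of the 6 passed, where 0.206% of all genes did, and the differences ran from 0.09 for Elovl5 (95% interval -0.39 to 0.57) to 0.51 for Fads1 (0.07 to 0.96, adjusted p = 0.476) and 0.74 for Fads2 (-0.11 to 1.58, adjusted p = 0.621). No label says which adipose and heart libraries came from the same of the 18 mice in the design text, so the tissues were treated as independent.

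**Figure D5:**
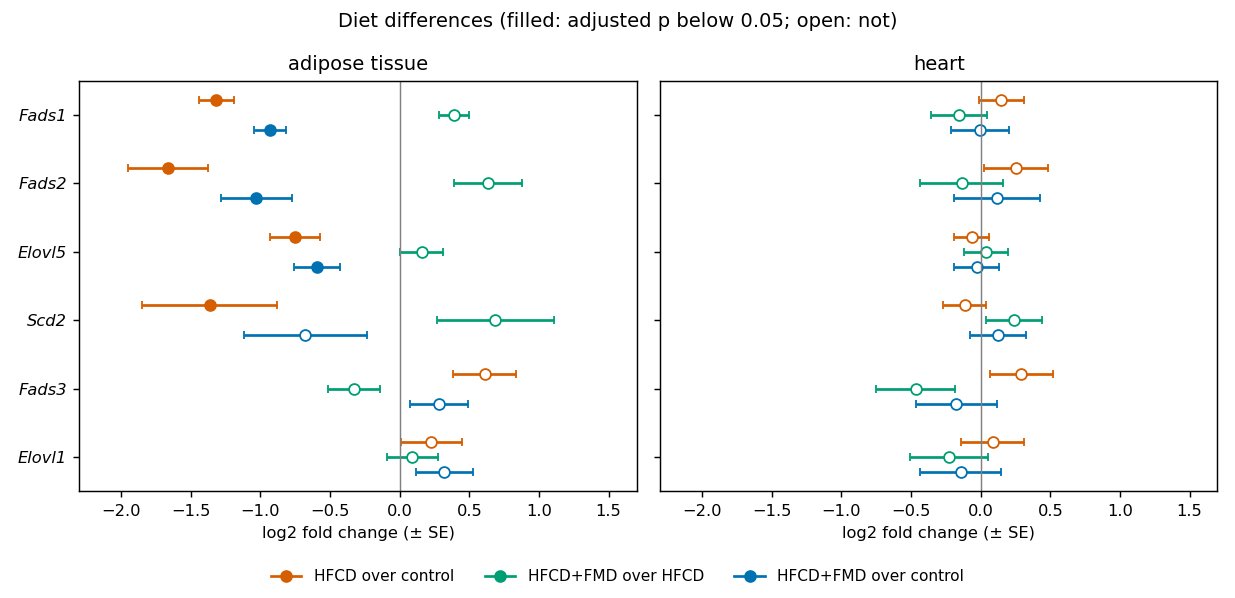
Log2 fold change (horizontal axis) with its SE for each gene and each pair of diets in adipose tissue (left) and heart (right); filled points have an adjusted p below 0.05. Filled points occur only in adipose tissue, for Fads1, Fads2 and Elovl5 against control under both diets and for Scd2 under HFCD, and all lie left of 0.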

How the data were processed

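RNA from adipose tissue and heart was sequenced after removal of ribosomal RNA, per the labels' protocols. The submitters' processing notes name STAR 2.5.3, mm10, R 3.5.3, edgeR and limma, in no stated order; the counter, the annotation and the use of strand are not given in the sources used here. Gene counts without normalization, deposited as 1 table per tissue, entered all tests. The deposited log2 tables are log2 CPM with a pseudocount of 0.5, the heart table corrected for 3 sets of libraries; they served only to recover those sets (largest residual 6.59e-09) and as an alternative. Of 34 labelled libraries 27 had columns, and 7 were not analysed here.

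Totals were 27868228 to 40831656 counts in HFCD+FMD, 23523322 to 36688935 in HFCD and 15604982 to 28495331 in control adipose libraries, and 17050559 to 47859170 in HFCD+FMD, 23707218 to 41712499 in HFCD and 16848195 to 33180337 in control heart libraries. Each tissue was fitted over all genes and diets with edgeR 4.0.16 in R 4.3.3 (filterByExpr, TMM scaling, robust quasi-likelihood F-test), with Benjamini-Hochberg adjustment over all genes tested and a threshold of 0.05; intervals are 95% and two-sided. The tissue by diet test used 1 fit over both tissues. Alternatives were DESeq2 1.42.0, limma 3.58.1 (voom, the deposited log2 values), other scalings, filters and covariates, and leaving out each library. The fit was tested on simulated data. Libraries carry no number that pairs them, so the p-values measure the spread between libraries. The 6 genes and all lists were chosen with earlier results of these data known. Besides the 6, Scd1, Srebf1 and Srebf2 were always named, as were up to 4 passing genes of a list with the smallest p and the 2 genes most like each of the 6, by root-mean-square difference of centred log2 CPM (prior count 2, mean of at least 1 CPM). Promoters come from RefSeq's GRCm38.p6 table, which matched 4 of the 6 genes. Some results on the peroxisomal list are not reported here.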

Additional observations from a re-analysis of the deposited data

Results flagged for a closer look

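Among 30 groups of 4 or more libraries (6 genes in each diet and tissue with enough libraries), 3 held a library far from the rest, where chance gives about 1 in 20. Elovl1 had 111 CPM in HFCD+FMD adipose replicate 4, above the other 5 libraries of its group. Fads1 had 28.5 CPM in HFCD heart replicate 5, which is the HFCD library of set C. This was also the only analysed library of age 22 months. It had the lowest sum of cardiomyocyte markers (38886 CPM) and the highest sum of macrophage markers (570 CPM) of all hearts. The part of these traits was not tested. Fads3 had 26.2 CPM in HFCD heart replicate 3, where 71.5% of counts were mitochondrially encoded.

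For 3 genes the effect of HFCD against control differed between the tissues in edgeR's interaction test. The log2 fold change in adipose tissue minus that in heart was -1.44 for Fads1, -1.89 for Fads2 and -0.67 for Elovl5. All 4 HFCD adipose libraries lay below all 3 control adipose libraries for these genes, and the heart libraries of the 2 diets overlapped.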

How the results depend on the processing

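The 4 calls among the 6 genes for HFCD against control in adipose tissue, and the absence of calls in heart, were recomputed with other scalings, filters, tools, covariates and with each library left out. Leaving the mitochondrially encoded genes and Scd1 out before scaling was added after seeing the data. Of 18 gene results in adipose tissue (6 genes, 3 pairs of diets) 17 kept their direction and 9 their side of the threshold in all alternatives, and of 18 in heart 2 kept their direction and all 18 their side of the threshold. For HFCD+FMD against HFCD in adipose tissue, 1 of the 6 genes passed with DESeq2 and with voom quality weights, against 0; for HFCD+FMD against control 1 to 3 passed with a library left out. For the tissue difference of HFCD+FMD against HFCD 0 to 1 passed with a library left out, 1 of them without heart HFCD+FMD replicate 1.

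The number of all genes called moved more. For HFCD against control in adipose tissue it was 4532, against 3777 to 6877 in other analyses and 2348 to 4854 with a library left out; it was 2348 without control replicate 1 and 2991 without control replicate 3. For HFCD+FMD against HFCD it was 31, against 25 to 472 and 5 to 80, and for HFCD+FMD against control 2978, against 1834 to 7246 and 663 to 3500, with 663 without control replicate 1 and 1164 without control replicate 3. In heart it was 0, against 0 to 226 and 0 to 0, for HFCD against control, 14, against 0 to 1328 and 0 to 368, for HFCD+FMD against HFCD, and 3, against 0 to 1193 and 0 to 217, for HFCD+FMD against control. For the tissue difference it was 2146, against 2132 to 2776 and 1153 to 2359, for HFCD against control, and 26, against 2 to 27 and 0 to 164, for HFCD+FMD against HFCD.

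The following log2 fold changes changed sign, all of them without passing the test before; the cause was not tested. Scaled by library totals, the median of all heart genes shifted to -0.39 for HFCD against control, 0.27 for HFCD+FMD against HFCD and -0.12 for HFCD+FMD against control. HFCD against control then gave -0.24 for Fads1, -0.21 for Fads2, -0.047 for Fads3 and -0.25 for Elovl1 in heart, and 0.27 for Srebf1 in adipose tissue. HFCD+FMD against HFCD gave 0.12 for Fads1, 0.13 for Fads2 and 0.034 for Elovl1, and HFCD+FMD against control -0.078 for Fads2 and -0.028 for Scd2. Voom quality weights gave, for HFCD+FMD against HFCD, -0.0078 for Elovl1 and 0.051 for Scd1 in adipose tissue and 0.018 for Fads2 in heart. With age as a covariate, heart gave 0.10 for Fads1 and 0.059 for Elovl1 (HFCD+FMD against HFCD) and 0.25 for Fads1, 0.15 for Elovl1 and 0.052 for Elovl5 (HFCD+FMD against control). Fitting only the diets compared gave -0.043 for Fads1 and -0.14 for Elovl1 (HFCD against control), -0.060 for Elovl5 (HFCD+FMD against HFCD) and 0.42 for Fads1, 0.17 for Fads3, 0.41 for Elovl1 and 0.072 for Elovl5 (HFCD+FMD against control). Without the set factor heart gave 0.064 for Fads1 and 0.081 for Fads2 (HFCD+FMD against HFCD) and 0.16 for both Fads1 and Elovl5 (HFCD+FMD against control), and the tissue difference of Elovl5 was -0.050 (HFCD+FMD against HFCD). Set A alone, chosen after seeing the data, gave -0.043 for Fads1 and -0.15 for Elovl1 (HFCD against control).

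With each library left out in turn, adipose values ran from -0.50 to 0.076 for Srebf1 (HFCD against control), -0.16 to 0.41 for Srebf1 (HFCD+FMD against control), and -0.082 to 0.22 for Elovl1 and -0.37 to 0.043 for Scd1 (HFCD+FMD against HFCD). Heart values for HFCD against control ran from -0.043 to 0.21 for Fads1, -0.14 to 0.31 for Elovl1 and -0.14 to 0.0043 for Elovl5. For HFCD+FMD against HFCD in heart they ran from -0.54 to 0.47 for Fads1, -0.77 to 0.025 for Fads3, -0.70 to 0.55 for Elovl1, -0.059 to 0.19 for Elovl5 and -0.84 to 0.24 for Scd1, and for HFCD+FMD against control from -0.57 to 0.42 for Fads1, -0.62 to 0.17 for Fads3, -0.83 to 0.41 for Elovl1 and -0.17 to 0.072 for Elovl5. Tissue differences ran from -0.080 to 0.38 for Elovl1 (HFCD against control), and for HFCD+FMD against HFCD from -0.10 to 0.89 for Fads1, -0.38 to 0.41 for Fads3, -0.48 to 0.75 for Elovl1 and -0.056 to 0.18 for Elovl5. Fads2, with 55 to 192 counts per heart library, has the widest counting error of the 6 genes. No paired analysis was possible because the replicate numbers were given in accession order and the titles carry only sample numbers.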

Other observations

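In HFCD+FMD against control adipose tissue, the lists of the pathway gave counts not shown above. Beside them stand the 19.7% of all genes called, 9.25% lower and 10.5% higher, and the count of electron donors is near that share. Of 9 other desaturases and elongases 4 were lower and none higher, of 6 elongation partners 2 were lower, of 6 electron donors 1 was lower, and of 16 genes of fatty acid synthesis 12 were lower, with a median log2 fold change of -1.48. Of 9 neighbours of the Fads genes 4 were higher and none lower, and of 11 neighbours of Scd2 3 were lower. Without control replicate 1, 5 genes of fatty acid synthesis and 1 neighbour of the Fads genes were called, without control replicate 3 no such neighbour was, and without control replicate 5 4 elongation partners were. These comparisons share control libraries with those of HFCD.

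The ratio of Scd1 to Scd2 in RPKM, computed after the values had been seen, was 19.1 to 41.5 in HFCD+FMD adipose libraries, 50.1 to 76.9 in HFCD and 57.2 to 173 in control. All HFCD+FMD libraries lay below all HFCD libraries, although Scd1 and Scd2 each overlapped between these diets.

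In the 14 heart libraries, of 11646 genes ranked, the genes closest to the members by centred log2 level were Slc39a1 (root-mean-square difference 0.14) for Fads1, Ankrd49 (0.11) for Fads2, Agpat3 (0.16) for Fads3, Pdia4 (0.08) for Elovl5, Eng (0.10) for Elovl1 and Creb1 (0.09) for Scd2. None of these was the closest gene in adipose tissue.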
